A study of Mus musculus with 13 samples.

Results

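The interleukin 1 family genes described here are 10 genes picked by symbol from the deposited table: the ligands Il1a, Il1b, Il18 and Il33, the receptor antagonist Il1rn, the receptors Il1r1, Il1rap and Il1rl1, the decoy receptor Il1r2 and the protease gene Casp1. All 10 of them were among the 15213 genes listed, and 8 of the 10 passed the filter on low values. The table holds RNA sequencing of 10 mammary tumors and of mammary glands from 3 FVB wild-type females, numbered here as in the sample labels. The tumors came from 6 MMTV-tTA TetO-Tsg101 females. In these mice the MMTV-tTA driver, which is active in the luminal mammary epithelium, turns on a transgene for HA-tagged mouse TSG101, an endosomal sorting protein, together with luciferase. The labels give this genotype as MtTA Teto-TSG101wt. Several founder lines of the TetO-Tsg101 transgene were kept, and the molecular work was done on a single line of them. All mice were on an FVB background, the tumors were adenosquamous carcinomas that grew in (multi)parous females without doxycycline, which would switch the transgene off, and the glands carried neither transgene. Ages were not given for these 13 libraries, and neither was the reproductive stage of the gland donors. Tumors 2 and 3 shared a mouse, as did tumors 5 and 6 and tumors 8, 9 and 10, so that the tumors were not all independent samples.

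Values are normalized cpm, that is, reads divided by an effective library size on the scale of cpm. Reads on the listed genes numbered 6176269 to 16835397 per tumor and 11672487 to 23889042 per gland. A gene without a read may still have up to 3, which is 0.141 to 0.683 normalized cpm in a tumor and 0.128 to 0.366 in a gland (counting error only). Ribosomal precursor RNA took a median of 2.79% of a tumor library (0.456% to 27.4%, the most in tumor 9) against 0.324%, 0.296% and 4.35% of glands 1 to 3. It was thus higher in all tumors than in glands 1 and 2, while gland 3 stood apart and lay within the tumor range. When libraries were scaled without it, none of the interleukin 1 family genes tested changed its direction or its side of the threshold. Tsg101 itself, which counts endogenous and transgenic reads together, averaged 66.5 ± 15.5 (SD, n = 10) normalized cpm over tumors and 53.2 ± 7.68 (SD, n = 3) over glands, with 6 of 10 tumors above all glands (log2 fold change 0.30, limma adjusted p = 0.296).

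Cytokines of the interleukin 1 family are made by epithelial, stromal and myeloid cells and start inflammatory gene expression in cells that carry their receptors. Il1a and Il1b bind the receptor Il1r1, which then recruits the co-receptor Il1rap and signals through Myd88 to NF-kappa B. Il1rn occupies Il1r1 without signaling, and Il1r2 binds the ligands but lacks the intracellular signaling domain. Il33 signals through Il1rl1 (ST2) and the same co-receptor, while Il18 uses Il18r1 and Il18rap and is held back by the soluble binding protein Il18bp. Il1b and Il18 are made as precursors that the protease caspase 1, the product of Casp1, cleaves inside inflammasomes. RNA levels do not report this cleavage, nor the release of the cytokines.

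Compared with the FVB glands, the tumors had higher RNA levels of the ligands Il1b and Il33, the antagonist Il1rn, the co-receptor Il1rap, the decoy receptor Il1r2 and Casp1. None of the 8 genes that passed the filter was significantly lower by limma, and the same was true at an unadjusted p below 0.05 (0 lower, 7 higher), with edgeR (0 lower, 6 higher) and with DESeq2 (0 lower, 6 higher). The largest change was that of Il1rn, from 1.71 normalized cpm in the glands to 79.3 in the tumors. The receptor Il1r1 and the ligand Il18 did not pass the test. A significant call needed an adjusted limma p under 0.05 (Benjamini-Hochberg false discovery rate, all genes tested) together with a fitted change above 2-fold. By this rule 6 of the 8 genes that passed the filter were higher, whereas 10.2% of the 11795 genes tested were higher and 6.99% lower. The filter asked for more than 5 normalized cpm in at least 7 libraries, which 10 tumors could meet alone but 3 glands could not. Il1b and Il1rn, below 5 in all glands, passed it only through the tumors. A gene seen only in the glands could not pass. The counts of higher and of 0 lower among these 8 genes are thus partly set by the filter. In the same test over all 15213 listed genes, which adds Il1a and Il1rl1, 7 of the 10 genes were higher and 0 were lower, against 10.5% higher and 10.1% lower of all genes. The 10 genes had a median log2 fold change of 1.59, and all listed genes one of 0.01. In 6 of the 10 genes every tumor was above every gland, which was the case for 11.4% of all listed genes (10.7% of those that passed the filter). The opposite, every tumor below every gland, held for 0 of the 10 genes and for 10.3% of all listed genes (8.53% of those that passed). When libraries were scaled to luminal epithelial genes, 11713 genes passed the filter in place of 11795. Their median log2 fold change was -0.17 in place of 0.01, with 853 higher and 1120 lower in place of 1204 and 825, and 5 of the 8 genes were higher. Leaving out a library gave between 5 (without gland 2) and 8 (without gland 3) genes of the set.

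**Figure D1:**
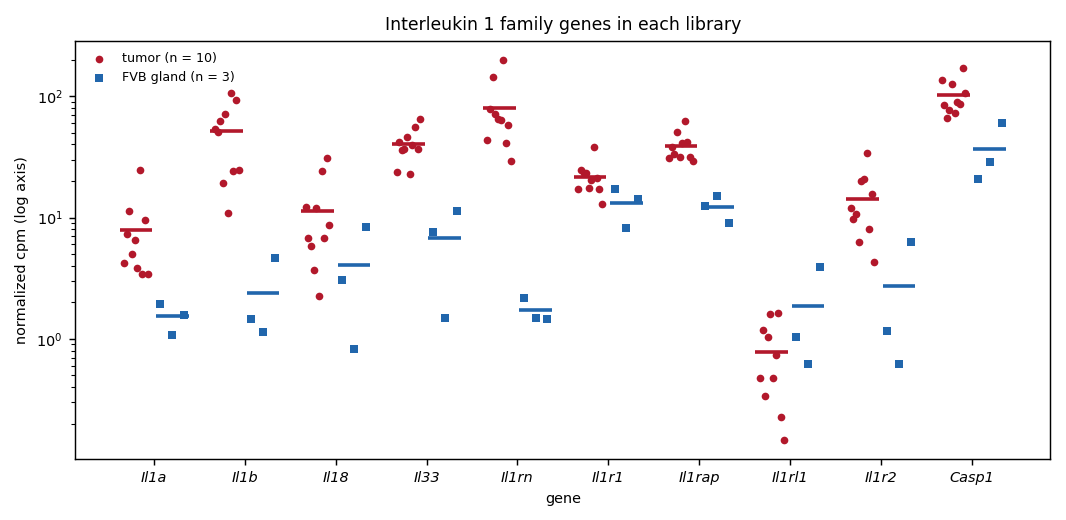
Normalized cpm of the 10 genes (x axis) in each library on a log axis. Each circle is 1 of the 10 tumors, each square 1 of the 3 FVB glands and each line a group mean. Tumors and glands are fully separate for Il1a, Il1b, Il33, Il1rn, Il1rap and Casp1, and overlap for Il18, Il1r1, Il1rl1 and Il1r2.

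The genes of both classical ligands lie side by side on chromosome 2 (GRCm38.p6), Il1a (Entrez 16175) at 129299609 to 129310186 and Il1b (Entrez 16176) at 129364569 to 129371164, within 71.6 kb. RefSeq gives 1 promoter for each, shown here because both neighbors were higher in all tumors than in all glands. Each stretch holds 250 bases before and 50 after the annotated start of transcription, 5′ to 3′ on the strand of the gene (minus), with matches to the letters of an AP-1 site (TGANTCA) in capitals.

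Il1a promoter, chr2:129309923-129310222: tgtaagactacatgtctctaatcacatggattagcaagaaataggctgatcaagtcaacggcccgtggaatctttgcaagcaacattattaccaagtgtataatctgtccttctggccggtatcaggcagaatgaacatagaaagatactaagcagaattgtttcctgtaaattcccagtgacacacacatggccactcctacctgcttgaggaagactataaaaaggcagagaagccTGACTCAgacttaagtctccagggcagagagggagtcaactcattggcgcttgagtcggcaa
Il1b promoter, chr2:129371090-129371389: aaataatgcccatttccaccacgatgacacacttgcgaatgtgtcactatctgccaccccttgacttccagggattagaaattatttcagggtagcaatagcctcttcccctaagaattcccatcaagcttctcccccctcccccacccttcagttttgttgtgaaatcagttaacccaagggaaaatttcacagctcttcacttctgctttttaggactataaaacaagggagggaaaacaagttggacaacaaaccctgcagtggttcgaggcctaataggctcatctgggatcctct

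The Il1a stretch holds 1 AP-1 match, TGACTCA, 12 bases before the start, and no match to the letters of a kappa B site (3 G, any 5 bases and 2 C, read on both strands). The Il1b stretch matches neither motif. Of 32851 mouse promoters of this length, 7.81% held an AP-1 match and 50.8% a kappa B match. A match only describes the letters of the window.

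Il1b, the main secreted ligand of inflamed tissue, was among the most changed genes of the set. Its lowest tumor was at 10.9, the median tumor at 52.2 and the highest tumor at 106 normalized cpm, while glands 1, 2 and 3 were at 1.46, 1.14 and 4.63. Even the lowest tumor was above the highest gland. Tumor and gland means were 51.6 ± 32.2 (SD, n = 10) and 2.41 ± 1.93 (SD, n = 3), and the fitted log2 fold change was 3.79 ± 0.58 (SE, limma adjusted p = 0.000205). The antisense gene Il1bos overlaps Il1b and was listed at no more than 2.52 normalized cpm in any tumor. Because the strand setting of the counting was not stated, reads of Il1b and Il1bos cannot be told apart in these counts.

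Il1a, an alarmin that epithelial cells store and release on damage, was less abundant than Il1b per length and did not pass the filter on low values. It ranged from 3.41 over a median of 5.76 to 24.7 normalized cpm in the tumors and was at 1.93, 1.08 and 1.58 in glands 1 to 3. All tumors were again above all glands, and tumor 7 stood far above the other tumors. In the fit over all listed genes, the log2 fold change was 1.59 ± 0.44 (SE, limma adjusted p = 0.0129). Without gland 2 the adjusted p of Il1a was 0.0621 and no longer passed the threshold.

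Il33 (Entrez 77125; chromosome 19, 29925113 to 29960718), a nuclear cytokine of epithelial and stromal cells that acts on mast cells, innate lymphoid cells and regulatory T cells, had the smallest spread of the ligands among the tumors relative to its mean. Its tumors lay between 23.0 and 64.8 normalized cpm with a median of 38.02, and glands 1 to 3 were at 7.54, 1.497 and 11.2. No tumor overlapped with the glands. The log2 fold change was 2.63 ± 0.39 (SE, limma adjusted p = 0.000161), and 1.95 without gland 2, the lowest gland (adjusted p = 0.000706). The tumor with the most Il33 was tumor 10, which had the lowest level of 6 of the other genes.

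Il18 (Entrez 16173; chromosome 9, 50554700 to 50581841), which drives interferon gamma production by lymphocytes, overlapped between the groups. The tumors ranged from 2.27 over a median of 7.78 to 31.2 normalized cpm, and glands 1 to 3 were at 3.04, 0.826 and 8.41. Thus 5 of 10 tumors were above the highest gland, and the lowest tumor fell between glands 1 and 2. The log2 fold change was 1.26 with a standard error of 0.62 (adjusted p = 0.149, limma), but without gland 3 it was 1.86 (adjusted p = 0.0484) and without gland 2 it was 0.67 (adjusted p = 0.578). Il18 shares part of its locus with Bco2 and Tex12, which were not analysed here, so that reads of the shared bases cannot be assigned by gene here.

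Il1rn (Entrez 16181; chromosome 2, 24336860 to 24351491) encodes the interleukin 1 receptor antagonist, which exists as a secreted form and as intracellular forms that start at a separate promoter. RefSeq places 3 starts in this gene. The most upstream promoter is shown because Il1rn had the largest change of the 10 genes and because only this stretch of its promoters matched both motifs. AP-1 and kappa B matches are in capitals.

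Il1rn promoter, chr2:24336610-24336909 (plus strand): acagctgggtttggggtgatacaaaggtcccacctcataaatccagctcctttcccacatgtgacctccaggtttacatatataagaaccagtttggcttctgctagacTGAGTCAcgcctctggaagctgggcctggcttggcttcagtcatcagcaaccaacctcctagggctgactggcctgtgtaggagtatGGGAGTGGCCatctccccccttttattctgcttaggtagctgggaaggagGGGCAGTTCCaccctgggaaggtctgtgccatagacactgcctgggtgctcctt

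It holds 1 AP-1 match, TGAGTCA, 141 bases before the start, and 2 kappa B matches, GGGAGTGGCC and GGGCAGTTCC. The other 2 Il1rn promoters overlap each other and share a single kappa B match, GGGTTTTTCC. Among the 10 genes, 2 held an AP-1 match in at least 1 of their promoters (Il1a and Il1rn) and 4 held a kappa B match (Casp1, Il1r1, Il1rap and Il1rn), counts that rest on 15 promoters in all. Of 27025 genes with such promoters, 8.97% held an AP-1 match and 53.5% a kappa B match. The deposited counts are summed per gene and do not separate the starts.

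Il1rn was at 29.0 in the lowest tumor, 64.2 in the median tumor and 199.6 normalized cpm in the highest tumor, against 2.18, 1.497 and 1.46 in glands 1 to 3. The lowest tumor was far above the highest gland. The means were 79.3 ± 52.5 normalized cpm (SD, n = 10) and 1.71 ± 0.407 (SD, n = 3), which gave a log2 fold change of 4.67 ± 0.44 (SE, limma adjusted p = 2.73e-06). Over all 26 alternative settings it stayed significantly higher, with a log2 fold change between 4.24 and 5.53.

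Among the receptors that signal, the co-receptor passed the test, and the ligand-binding chains Il1r1 and Il1rl1 did not. Il1rap (Entrez 16180; chromosome 16, 26581509 to 26730128), the accessory chain for Il1a, Il1b, Il33 and the interleukin 36 cytokines, lay between 29.3 and 62.6 normalized cpm in the tumors with a median of 35.5, and at 12.4, 15.1 and 9.02 in glands 1 to 3. All tumors were above all glands. The log2 fold change was 1.59 ± 0.23 (SE, limma adjusted p = 0.000101). The gene has a membrane-bound and a soluble product, which these counts do not separate.

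Il1r1 (Entrez 16177; chromosome 1, 40222480 to 40316201), the signaling receptor of Il1a and Il1b, ranged from 12.9 over a median of 20.7 to 38.1 normalized cpm in the tumors and was at 17.2, 8.21 and 14.3 in glands 1 to 3. Tumors 1, 9 and 10 were below gland 1, the highest gland, so that the groups overlapped. The log2 fold change was 0.67 ± 0.27 (SE, limma adjusted p = 0.0763), and it lay below the 2-fold limit under all 26 alternatives, from 0.38 to 0.87.

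Il1rl1 (Entrez 17082; chromosome 1, 40404864 to 40465418), the Il33 receptor ST2, was the least abundant gene of the set per length. Its tumors lay between 0.148 and 1.65 normalized cpm with a median of 0.607, and glands 1 to 3 were at 1.03, 0.620 and 3.901. The groups overlapped, with 5 of 10 tumors below the lowest gland, and the lowest tumor was at 1 read. In the fit over all listed genes the log2 fold change was -0.56 ± 0.33 (SE, limma adjusted p = 0.226). Without gland 3, the highest gland, it was -0.08, and without gland 2 it was -0.88.

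Il1r2 (Entrez 16178; chromosome 1, 40084692 to 40125230), the decoy receptor, ranged from 4.30 over a median of 11.4 to 34.2 normalized cpm in the tumors. Glands 1 and 2 were at 1.16 and 0.620, but gland 3 was at 6.34, above the lowest 2 tumors (4 and 10). The log2 fold change was 2.16 ± 0.53 (SE, limma adjusted p = 0.00660). Without gland 2, which had the lowest level, the adjusted p was 0.0561, and without gland 3 the log2 fold change was 2.82.

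Casp1 (Entrez 12362; chromosome 9, 5298517 to 5307281), the protease that processes Il1b and Il18, was the most abundant gene of the set per length in both groups. Its tumors lay between 66.4 and 169 normalized cpm with a median of 88.2, and glands 1 to 3 were at 20.7, 28.8 and 60.6. The highest gland was just below the lowest tumor. The log2 fold change was 1.53 ± 0.31 (SE, limma adjusted p = 0.00199). When the libraries were scaled to luminal epithelial genes instead, the adjusted p was 0.0511.

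**Figure D2:**
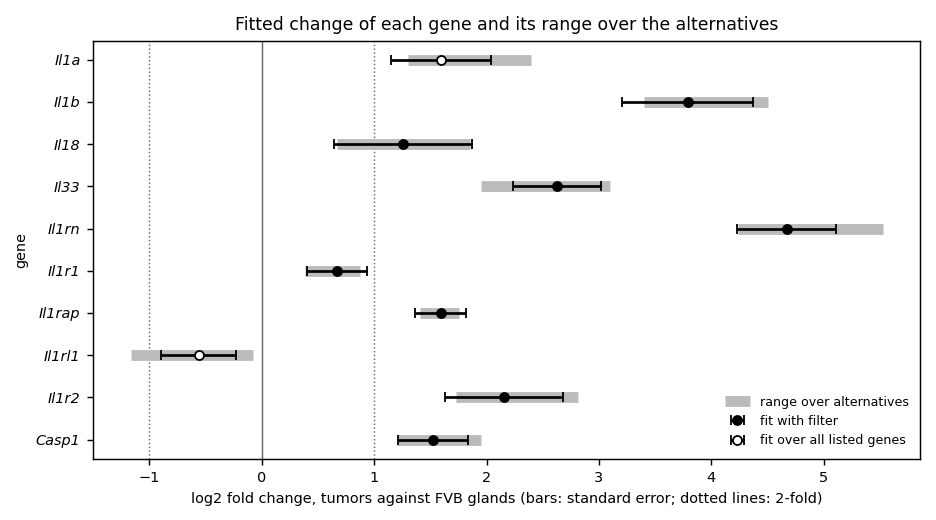
Fitted log2 fold change (x axis) of each gene (y axis) between the 10 tumors and the 3 glands, with its standard error. Filled circles are from the fit with the filter, open circles from the fit over all listed genes, gray bars span the alternative settings and dotted lines mark 2-fold. Il1rn and Il1b changed the most, and the bars of Il18 (0.67 to 1.86) and of Il1rl1 cross a 2-fold line.

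Levels of different genes were compared per kilobase of exon. In the tumors, Casp1 was highest at 67.8 ± 22.01 normalized cpm per kb (SD, n = 10), followed by Il1b at 27.1 ± 16.9, Il1rn at 14.3 ± 9.49, Il33 at 14.0 ± 4.43 and Il18 at 11.001 ± 9.002. Il1r2 at 7.44 ± 4.67, Il1a at 4.02 ± 3.29, Il1rap at 3.44 ± 0.937 and Il1r1 at 3.38 ± 1.08 came next, and Il1rl1 was last at 0.114 ± 0.0799. Neighbors in this order differed by more than the larger of their SDs only at the top (Casp1 above Il1b) and at the bottom (Il1r1 above Il1rl1), in 10 of 10 tumors each. In the glands Casp1 was again first at 24.5 ± 14.1 normalized cpm per kb (SD, n = 3), while Il1rn was at 0.310, the ninth of the 10 levels, and Il1rl1 at 0.268 was last. The antagonist was thus among the lowest of these RNAs in the glands and among the highest in the tumors.

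Whether paired genes changed in proportion was asked with 3 ratios taken within each library, where the scaling between libraries cancels except through the added 1. The pairs were the antagonist and its competing ligands, the decoy and the signaling receptor, and a receptor and its ligand. The log2 ratio of Il1rn to Il1a plus Il1b was between -0.81 and 2.03 in the tumors with a median of 0.49. In glands 1 to 3 it was -0.46, -0.37 and -1.55. It was above 0 in 7 of 10 tumors and in 0 of 3 glands, without a correction for gene length. The mean difference was 1.26 (0.47 ± 0.87, SD, n = 10, against -0.79 ± 0.66, SD, n = 3; exact permutation test, two-sided, p = 0.0455, adjusted over the 3 ratios 0.0455). This p was above 0.05 in 12 of 18 alternatives, among them those without tumor 2, 3, 4, 6, 7, 8 or 10 (0.0545 to 0.0727) and those without gland 1, 2 or 3 (0.0758, 0.0606 and 0.197).

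The log2 ratio of the decoy receptor Il1r2 to the signaling receptor Il1r1 was between -1.75 and 0.18 in the tumors with a median of -0.76, and was -3.08, -2.51 and -1.06 in glands 1 to 3. Of the tumors, 6 were above the highest gland, which was gland 3. The mean difference was 1.49 (-0.72 ± 0.70, SD, n = 10, against -2.21 ± 1.04, SD, n = 3; exact permutation test, two-sided, p = 0.0175, adjusted 0.0262). Without gland 1 the p was 0.121 and without gland 2 it was 0.0758, with differences of 1.06 and 1.34.

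The log2 ratio of the receptor Il1rl1 to its ligand Il33 separated the groups completely. It lay between -5.84 and -4.03 in the tumors and was -2.07, -0.62 and -1.32 in glands 1 to 3. All 10 tumors were below all 3 glands. The mean difference was -3.19 (-4.53 ± 0.55, SD, n = 10, against -1.34 ± 0.72, SD, n = 3), with an exact permutation p of 0.0035, two-sided, the smallest that this design allows, and 0.0105 after adjustment. The added 1 weighs on this ratio, since most Il1rl1 values were near or below 1, yet the difference remained between -3.56 and -2.81 over all 18 alternatives. Il33 alone was significantly higher and Il1rl1 alone did not pass the test, so the ratio is no separate evidence of a fall of Il1rl1.

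**Figure D3:**
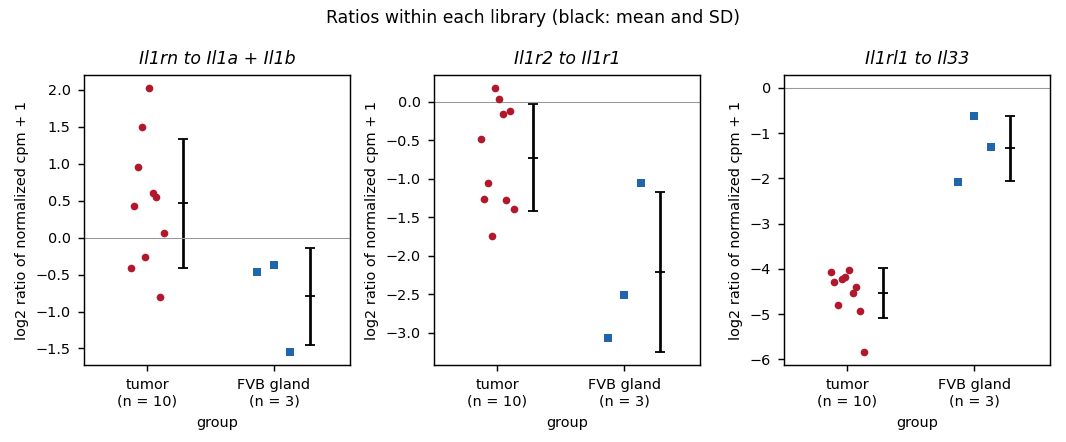
The 3 log2 ratios (y axes, normalized cpm + 1) in each of the 10 tumors (circles) and 3 FVB glands (squares), with the mean and SD of each group in black. The groups overlap for Il1rn to Il1a plus Il1b and for Il1r2 to Il1r1, and do not overlap for Il1rl1 to Il33.

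Several of these genes sit in 2 clusters whose other genes also belong to the family. On chromosome 1, Il1r2, Il1r1, Il1rl2, Il1rl1, Il18r1 and Il18rap follow each other within 467 kb, and fitted changes went from the rise of Il1r2 to a fall of Il18r1. Il18r1, the ligand-binding chain of the Il18 receptor, was at 27.7, 28.1 and 51.6 normalized cpm in glands 1 to 3 and at no more than 10.03 in any tumor. All 10 tumors were below all glands (log2 fold change -2.32 ± 0.33 SE, limma adjusted p = 9.72e-05). Its partner chain Il18rap had a log2 fold change of -1.15 ± 0.34 in the fit over all listed genes (SE, limma adjusted p = 0.0193), with 9 of 10 tumors below the lowest gland, but an adjusted p of 0.0530 without gland 1 and 0.0852 without gland 3. Il1rl2, the interleukin 36 receptor, was above all glands in all tumors but changed by less than 2-fold (log2 fold change 0.84 ± 0.23 SE, limma adjusted p = 0.0125).

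On chromosome 2, Il36b, Il36g, Il36a, Il36rn, Il1f10 and Il1rn lie within 198 kb, and all 6 were significantly higher in the tumors in the fit over all listed genes, beside 10.5% of all genes in that fit. Interleukin 36 cytokines are made mainly by keratinocytes of stratified epithelia, and Il36rn is their receptor antagonist. Il36a averaged 37.7 ± 44.6 (SD, n = 10) normalized cpm over tumors, from 9.53 to 159, and had 2 reads in all 3 glands together. Il36g ranged from 6.71 to 96.7 and Il36rn from 8.47 to 89.7 in the tumors, with 7 and 9 reads in the 3 glands. In the fit with the filter the log2 fold changes of Il36a, Il36g and Il36rn were 4.66, 4.21 and 4.20 (standard errors 0.63, 0.60 and 0.54), with adjusted p of 6.86e-05, 0.000106 and 4.30e-05 (limma). With so few gland reads these values depend on the added 1, and that of Il36a ran from 3.76 to 9.79 over the alternatives. Il36b had 0 reads in the glands and 3.36 ± 3.48 normalized cpm (SD, n = 10) in the tumors, which is at least 15.5-fold higher than a floor of 3 reads per gland library (log2 fold change 1.84 ± 0.47 SE in the fit over all listed genes, limma adjusted p = 0.00755). Il1f10 reached 4.40 at most in a tumor and had 1 read in the glands (log2 fold change 1.06 ± 0.32 SE, limma adjusted p = 0.0210), and its adjusted p was 0.0809 without gland 1 and 0.0705 without gland 2, and its log2 fold change was 0.91 without tumor 7.

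**Figure D4:**
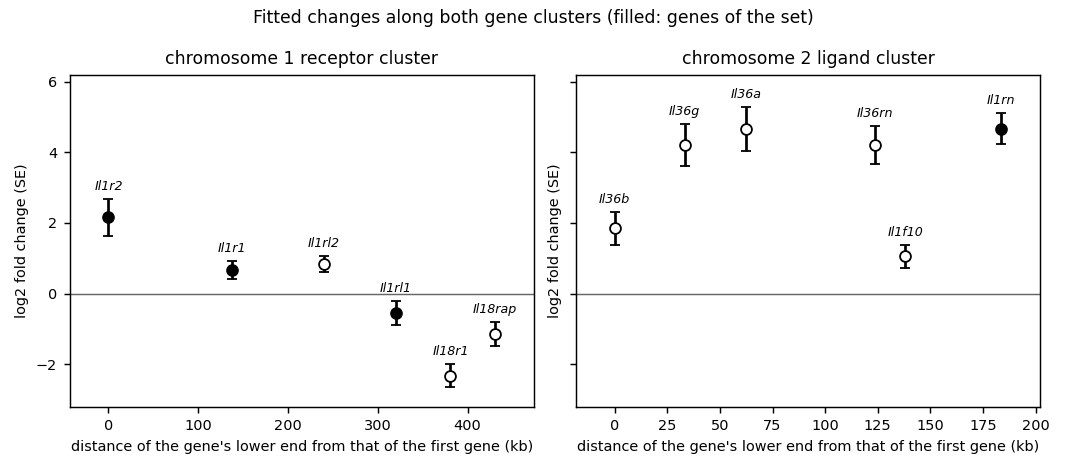
Fitted log2 fold change and standard error (y axis) of the genes of both clusters by their distance along the chromosome from the first gene (x axis, kb). Filled circles are genes of the set and open circles other family members. On chromosome 1 the changes run from 2.16 (Il1r2) to -2.32 (Il18r1), and on chromosome 2 all 6 are above 0.

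Of 12 further family genes, 10 were listed and 6 passed the filter, of which 3 were significantly higher and 1 was lower. These counts stand beside 10.2% and 6.99% of all genes tested, and the 6 genes had a median log2 fold change of 2.52. The 3 higher genes (Il36a, Il36g and Il36rn) passed the filter only through the tumors. Il18rap and Il18bp, higher in the glands, did not pass it. In the fit over all listed genes 5 of the 10 were higher and 3 lower, beside 10.5% and 10.1% of all genes. The median of the 10 was then 0.95. All 4 genes called with the filter have been named above. Outside the clusters, Il18bp, the inhibitor of Il18, was chosen for mention after its values were seen. It was at 11.6, 10.5 and 12.8 normalized cpm in glands 1 to 3 and between 2.22 and 4.65 in the tumors, with no overlap. Its log2 fold change was -1.46 ± 0.20 in the fit over all listed genes (SE, limma adjusted p = 6.26e-05). Summed lymphocyte markers were at 5.48 to 77.6 normalized cpm in the tumors and 367, 17.6 and 293 in glands 1 to 3, and their part in the levels of Il18r1, Il18rap and Il18bp was not tested.

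Genes of the intracellular relay from the receptors come next. All 18 signaling genes of the list, from Myd88 and the Irak kinases to Rela, passed the filter, and 1 was significantly lower and 0 were higher (limma), beside 6.99% lower and 10.2% higher of all genes tested, with a median log2 fold change of -0.18. At an unadjusted p below 0.05, 1 was higher and 3 were lower, and edgeR and DESeq2 each called 0 higher and 1 lower. The gene called was Peli2, a ubiquitin ligase of the Irak complex, which averaged 9.77 ± 4.99 (SD, n = 10) normalized cpm over tumors and 24.4 ± 7.54 (SD, n = 3) over glands (log2 fold change -1.31 ± 0.35 SE, limma adjusted p = 0.0115). The tumors and glands overlapped for it, and the adjusted p was 0.0825 without gland 1 and 0.0527 without gland 2, so that 0 of the 18 genes were then called.

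Inflammasome genes, whose products act with caspase 1 or, like Gsdmd, are cleaved by it, differed widely in level. Their tumor means ran from 105 normalized cpm for Pycard to 1.74 for Nlrp1b. Of 9 such genes 8 were listed and 4 passed the filter (Pycard, Aim2, Gsdmd and Casp4, named after their values were seen), and 0 were significantly deregulated by limma, beside 10.2% higher and 6.99% lower of all genes tested, with a median log2 fold change of 0.09. A count over 4 genes is too small to be read against these shares. At an unadjusted p below 0.05, 1 was higher and 1 lower, and edgeR and DESeq2 each called 1 lower. Without gland 3, limma called 2 of them higher, and without gland 2 it called 1 lower. In the fit over all listed genes 0 of the 8 were called, with a median log2 fold change of 0.52. Nlrp3, below the filter and named after its values were seen, was above all glands in all 10 tumors. Its log2 fold change in that fit was 0.95 ± 0.37 (SE, limma adjusted p = 0.0658).

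Genes known to respond to interleukin 1 and NF-kappa B formed the last list. Of 19 such genes 17 were listed and 15 passed the filter, and 8 were significantly higher and 2 lower. These counts stand beside 10.2% and 6.99% of all genes tested, and the 15 genes had a median log2 fold change of 1.68. Of the higher genes, Cxcl1, Cxcl2, Cxcl5 and Ptgs2 were below 5 normalized cpm in all glands and passed the filter only through the tumors. In the fit over all listed genes 9 of the 17 were higher and 2 lower, beside 10.5% and 10.1% of all genes, with a median of 1.13. The largest rises were those of the neutrophil chemokines Cxcl5 and Cxcl2 and of the acute phase gene Saa3. Cxcl5 ranged from 8.40 to 145 normalized cpm in the tumors and had 5 reads in the 3 glands (log2 fold change 5.17 ± 0.65 SE, limma adjusted p = 3.58e-05). Cxcl2 was between 2.35 and 54.8 in the tumors and had 3 reads in the glands (log2 fold change 3.76 ± 0.74 SE, limma adjusted p = 0.00152). With so few gland reads both values depend on the added 1, and they ran from 4.26 to 9.21 for Cxcl5 and from 2.95 to 8.19 for Cxcl2 over the alternatives. Saa3 averaged 169.6 ± 129.8 (SD, n = 10) normalized cpm over tumors and 5.74 ± 6.86 (SD, n = 3) over glands (log2 fold change 4.76 ± 0.68 SE, limma adjusted p = 0.000109, and 5.56 without gland 3).

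The 2 genes of this list that fell were Nfkbia and Birc3. Nfkbia, the inhibitor that holds NF-kappa B in the cytoplasm, averaged 108 ± 17.1 (SD, n = 10) normalized cpm over tumors and 295 ± 57.8 (SD, n = 3) over glands. Its log2 fold change was -1.44 ± 0.18 (SE, limma adjusted p = 2.98e-05). Birc3, a ubiquitin ligase of tumor necrosis factor signaling, had a log2 fold change of -1.07 ± 0.16 (SE, limma adjusted p = 0.000158). For both genes all tumors were below all glands. Of the other inhibitors of the pathway in the list, chosen for mention after their values were seen, Zc3h12a rose (log2 fold change 2.25 ± 0.33 SE, limma adjusted p = 0.000156) and Tnfaip3 did not pass the test (-0.46 ± 0.24 SE, limma adjusted p = 0.186). Nfkbiz, an atypical member of the inhibitor of NF-kappa B family that also activates some target genes, rose (log2 fold change 1.68 ± 0.16 SE, limma adjusted p = 2.58e-06), with all tumors above all glands.

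The 10 tumors differed from each other as well. Tumor 7 had the highest level of 6 of the 10 genes (Il1a, Il1b, Il1rn, Il1r1, Il1rap and Il1r2), whereas it was highest for 12.5% of the 11979 genes with a mean above 5 normalized cpm in the tumors. Tumor 10 had the lowest level of 6 of the 10 (5.55% of these genes). Among the 6, Il1rl1 was at 1 read in tumors 9 and 10 alike, and its mean is too low for it to count among the 11979 genes. Il1a was at 3.409 normalized cpm in tumor 10 against 3.413 in tumor 8. Tumor 6 had the lowest level of Il1b, Il18 and Il33 (15.2% of the 11979 genes). Tumor 9 was highest for Il18 and Casp1, 2 of the 10 genes, a share no larger than the 20.04% of these genes for which it was highest. Tumors of the same mouse could be far apart. Tumors 5 and 6 were at 71.3 and 10.9 normalized cpm of Il1b, a ratio of 6.51, but at 64.7 and 63.6 of Il1rn, a ratio of 1.02. Tumors 8, 9 and 10 spanned a ratio of 3.83 for Il1b and 2.01 for Il1rn, and tumors 2 and 3 one of 1.23 and 1.83.

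The 3 glands also differed. Gland 3 had the highest level of 6 of the 10 genes (Il1b, Il18, Il33, Il1rl1, Il1r2 and Casp1), beside 39.4% of 11899 genes above 5 normalized cpm on average, and gland 2 had the lowest level of 7, beside 22.3%. Il1a, Il1b, Il18, Il1rn, Il1rl1 and Il1r2 averaged below 5 in the glands and are not among the 11899 genes, so these shares are only a rough reference. Summed macrophage markers were at 816, 581 and 1923 normalized cpm in glands 1 to 3, but without Lyz2 at 341, 392.3 and 391.9, and summed lymphocyte markers were at 367, 17.6 and 293.

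Because these are whole tissues, fewer cells of a type and less RNA per cell cannot be told apart, and markers of several cell types moved with the groups. Summed neutrophil markers were at 304 to 3950 normalized cpm in tumors but 3.92 to 50.8 in glands, and 4 of the 7 listed markers (S100a8, S100a9, Csf3r and Camp) were above all glands in all tumors. S100a8 and S100a9, which keratinocytes also make, carried most of this sum in the tumors. Without them the other 5 markers summed to 12.8 to 106.5 in tumors and 8.69, 2.32 and 9.51 in glands 1 to 3, with all 10 tumors above all glands. Cxcr2 and Retnlg overlapped, with 2 and 5 of 10 tumors above all glands, Mpo reached 2.05 at most, and Ly6g was not analysed here. Squamous keratinocyte markers summed to 186 to 1801 in the tumors and 38.8 to 38.9 in the glands, with Ivl at 0 in all glands, and 7 of 10 were above all glands in all tumors. Basal epithelial markers summed to 913 to 4236 against 181 to 363, with 4 of 4 above. Tumor 7 had the highest sum of all 3 of these lists, but for neutrophil markers without S100a8 and S100a9 tumor 9 was highest.

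Macrophage markers summed to 1034 to 4721 in the tumors and 581 to 1923 in the glands, which overlap, but Lyz2 alone made up 555 to 4024 of the tumor sums and 189 to 1531 of the gland sums. Without Lyz2 the other 8 markers summed to 479 to 759 in the tumors and 341, 392.3 and 391.9 in glands 1 to 3, with all 10 tumors above all glands. Of the 9 genes, 3 (C1qa, C1qb and Cd14) were above all glands in all tumors, and Adgre1 and Cd68 were so in 9 of 10 tumors. Lyz2 was above all glands in 5 tumors, Csf1r in 2, Mrc1 in 1 and Cd163 in 0. Cd163 was below all glands in 8 of 10 tumors and Mrc1 in 4, so these markers did not move as one. Tumor 9 had the highest sum with Lyz2 and tumor 3 without it, and tumor 10 had the lowest sum either way. Mast cell markers, whose cells carry Il1rl1, summed to 0.296 to 16.7 and 1.96 to 9.63, with 0 of 4 separate. Luminal epithelial sums were 1698 to 2338 and 1092 to 2464. Adipocyte (7 of 7 genes), endothelial (6 of 6), fibroblast (3 of 6) and lymphocyte markers (3 of 8) were below all glands in all tumors, with tumor sums of 47.2 to 285, 43.3 to 102, 335 to 1070 and 5.48 to 77.6 against 2286 to 4615, 241 to 586, 3444 to 3885 and 17.6 to 367. What part these cell types have in the changes of the 10 genes was not tested.

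**Figure D5:**
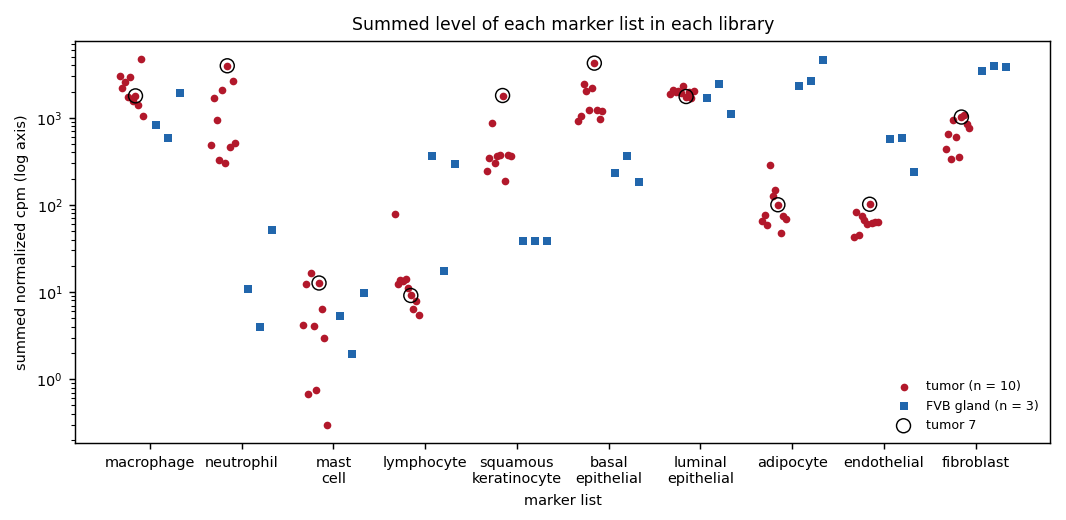
Summed normalized cpm (y axis, log) of each marker list (x axis) in the 10 tumors (circles) and 3 FVB glands (squares), with tumor 7 ringed. Tumor 7 is the highest tumor for the neutrophil (3950), squamous (1801) and basal (4236) lists, of which the neutrophil sum is carried by S100a8 and S100a9, and the adipocyte, endothelial and fibroblast sums of all tumors are below those of the glands.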

How the data were processed

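Total RNA of flash-frozen tissue was sequenced with paired ends. The methods name the UNMC core facility and the labels also Novogene, without saying for which libraries, so no batch could be assigned. The authors used Rsubread to map reads to mm10, featureCounts to count them and edgeR to normalize the counts. The strand setting, and the filter behind the listed genes, are not given in the sources used here. The deposited values have the unit signal, reads divided by an effective library size (normalized cpm). All were whole multiples of 1 read within 0.01 reads, and reads were recovered on this basis. Because the values are normalized, limma 3.58.1 (R 4.3.3) with a trend was fitted to log2(normalized cpm + 1) in 10 tumors and 3 glands, without covariates. Fold changes on this scale understate those of low genes. A gene had to exceed 5 normalized cpm in at least 7 libraries (11795 genes), and genes below this (Il1a, Il1rl1 and some neighbors) were taken from the same fit over all 15213 genes. edgeR 4.0.16 and DESeq2 1.42.0 on recovered reads were alternatives. p-values treat tumors of a mouse as separate samples. Ratios were tested with exact permutation tests over libraries (scipy 1.17.1).

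The 10 genes, the gene lists and the marker lists were chosen with earlier results of these data known. Named were all 10 genes, the 3 genes with the largest significant rise and fall in each further list, and family genes beside them on the chromosome. Positions and promoters are from RefSeq on GRCm38.p6 (15106 genes matched by Entrez ID; promoters matched for 10 of 10), and exonic lengths from GENCODE vM21. The fit was tested on simulated counts.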

Additional observations from a re-analysis of the deposited data

Results flagged for a closer look

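Within the 10 tumors, the highest and the lowest value of each of the 25 named genes and 3 ratios was compared with its nearest neighbor (Dixon's test at 95%), and 9 values stood apart. Chance alone sets about 1 in 20 groups of normally distributed values apart. Genes were compared on normalized cpm without a log, which leaned to high values (Il36a tumor mean 37.7, median 21.1). The rate therefore does not hold for them. Flags of neighboring genes in the same library, such as those of the interleukin 36 genes here, are not separate events. Tumor 7 accounted for 7 of the 9 values. It was at 24.7 normalized cpm of Il1a (next tumor 11.4), 38.1 of Il1r1 (next 24.6), 159 of Il36a (next 47.0), 96.7 of Il36g (next 37.7), 89.7 of Il36rn (next 45.3), 12.2 of Il36b (next 6.52) and 4.40 of Il1f10 (next 1.77). This library also had the highest summed neutrophil (3950, mostly S100a8 and S100a9), squamous (1801) and basal (4236) marker levels, and their part in these values was not tested. Without tumor 7, 6 genes of the set were significantly higher. Tumor 6 was at 21.4 normalized cpm of Peli2 (next 13.4). Tumor 10 had a log2 ratio of Il1rl1 to Il33 of -5.84 (next -4.94), with a single Il1rl1 read behind it.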

How the results depend on the processing

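Over the 26 alternatives, the 10 genes gave 260 values, of which 249 kept their direction and their side of the threshold, 10 lost the call, 1 gained it (Il18 without gland 3) and 0 changed sign. The 10 were Il1a, Il33, Il1rap, Il1r2 and Casp1 under the replicate block, Il1a and Il1r2 without gland 2, Casp1 under luminal scaling, and Il1r2 and Casp1 in tumors 1 to 3 with glands 1 to 3. Leaving out a library gave 5 to 8 significant genes of the set and 1661 to 2660 of all genes, and mean differences of 0.88 to 1.47 for the ratio of Il1rn to its ligands, 1.06 to 2.07 for Il1r2 to Il1r1 and -3.56 to -2.83 for Il1rl1 to Il33. Without the filter, and with a filter at 1 normalized cpm in 3 libraries, 3141 of all genes were significant, against 2029, because more genes were tested, and 8 further family genes, against 4. An added 2 in place of 1 gave a difference of 1.08 for Il1rn to its ligands (exact permutation p = 0.0699).

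Labels number tumors and glands 1 to 3 alike, but these are different mice. The deviations of same-numbered libraries correlated at -0.58, 0.04 and -0.66. Libraries with different numbers were not compared, so these values cannot decide whether the numbers share more than a name. A replicate block on these 6 libraries called 2 genes of the set and 799 of all genes, and the same libraries without the block, an alternative chosen after seeing the data, 4 and 1632. Under the block the differences of the ratios were 1.12, 1.28 and -3.04, each at an exact permutation p of 0.25, the smallest that 3 pairs allow. The alternatives of the further lists and genes were also added after seeing the data.

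With 3 glands of unknown stage, leaving out a single gland changes the calls of Il1a, Il1r2, Il18 and of the ratios of Il1rn to its ligands and of Il1r2 to Il1r1, and moves the fold of Il33 by over 1.5 times. Il1rl1 rests on 68 gland reads in all. Bulk RNA cannot place any of these changes in a cell type.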
